A study of Homo sapiens with 9 samples.

Results

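Genes of sterol and fatty acid synthesis were followed across 9 expression arrays of A673 cells, a human Ewing sarcoma line with the EWS/FLI translocation. The list held 32 genes of the pathway run by the sterol regulatory element binding proteins (SREBPs), with the SREBPs and their regulators among them. A gene was taken up where a probe set of the array named it and no other gene. That left 29 genes with 58 probe sets, among 9100 genes tested in all. No probe set matched FDFT1, and every probe set for CYP51A1 or FADS1 also named another gene, so these 3 were not analysed here. Of the 58 probe sets, 56 lay above the filter on dim signals, and all 29 genes had at least 1 such probe set. Each gene was read from its brightest probe set unless another is named.

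All cells were grown in RPMI medium with fetal calf serum. The first experiment used siRNA at 5 nM over 48 hours: a control siRNA (2 arrays), EZH2 siRNA no.2 (2 arrays) and a further siRNA to EZH2 that its title leaves without a number, called the unnumbered EZH2 siRNA below (1 array). EZH2 is the methyltransferase of a Polycomb complex that marks histone H3. The second experiment used trichostatin A (TSA), which blocks histone deacetylases, at 100 nM and its solvent DMSO at 0.01%, each over 24 hours and with 2 arrays. The DMSO and TSA cells therefore differed from the control siRNA cells in transfection and in hours as well as in the agent, and these cannot be told apart. A673 is 1 line, the titles call the replicates biological without saying that they came from separate cultures, and a p here reflects the spread among these arrays alone, which may be technical.

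Cholesterol is built from acetyl-CoA through mevalonate and squalene, and the early steps also supply the isoprenoids. When membrane sterol is low, the carrier protein SCAP brings SREBPs from the endoplasmic reticulum to the Golgi, where proteases release the part that enters the nucleus and switches on genes of sterol and fatty acid synthesis. INSIG1 and INSIG2 hold SCAP back when sterol is plentiful, and INSIG1 is itself a target, so its transcript is a common readout of the pathway. SREBF2 is known mainly for the sterol genes and SREBF1 for the fatty acid genes. SREBPs bind sterol regulatory elements, usually beside the CCAAT box bound by the factor NF-Y.

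The 250 bases before the annotated starts are shown for 6 genes. INSIG1, FDPS, HMGCS1 and EBP are shown because they were the genes higher in DMSO than with the control siRNA at an unadjusted limma p under 0.05, ERG28 as the scaffold of the sterol branch, and SREBF2 as the main regulator of the sterol genes. The sequences are RefSeq's on GRCh38.p14, read 5′ to 3′ on the strand of the gene. Capitals mark CCAAT on either strand (so CCAAT or ATTGG) and, in SREBF2, the letters TCACNCCAC of a classical sterol regulatory element. For HMGCS1, which has 2 annotated starts, the window that holds CCAAT is given.
INSIG1, chr7:155297628-155297877 (+ strand): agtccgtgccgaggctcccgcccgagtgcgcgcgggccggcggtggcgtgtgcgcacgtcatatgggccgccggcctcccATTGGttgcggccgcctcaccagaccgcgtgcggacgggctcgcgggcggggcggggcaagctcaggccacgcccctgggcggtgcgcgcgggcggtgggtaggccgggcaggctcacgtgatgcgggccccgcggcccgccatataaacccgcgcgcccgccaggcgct
FDPS, chr1:155308616-155308865 (+ strand): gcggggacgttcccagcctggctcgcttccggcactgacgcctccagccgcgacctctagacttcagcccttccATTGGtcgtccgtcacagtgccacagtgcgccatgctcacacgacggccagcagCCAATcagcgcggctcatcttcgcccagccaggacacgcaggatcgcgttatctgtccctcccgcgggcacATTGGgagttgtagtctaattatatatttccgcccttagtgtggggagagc
HMGCS1, chr5:43313413-43313662 (- strand): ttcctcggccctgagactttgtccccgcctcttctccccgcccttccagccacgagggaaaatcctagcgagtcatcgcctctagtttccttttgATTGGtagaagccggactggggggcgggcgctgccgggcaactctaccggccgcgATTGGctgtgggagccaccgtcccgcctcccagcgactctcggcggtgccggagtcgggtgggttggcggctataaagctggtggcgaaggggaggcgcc
EBP, chrX:48521558-48521807 (+ strand): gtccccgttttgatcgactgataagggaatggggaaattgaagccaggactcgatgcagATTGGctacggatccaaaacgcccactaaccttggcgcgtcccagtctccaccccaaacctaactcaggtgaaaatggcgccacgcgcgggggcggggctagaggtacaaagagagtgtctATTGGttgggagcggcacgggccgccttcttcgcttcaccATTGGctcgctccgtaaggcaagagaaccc
ERG28, chr14:75660877-75661126 (- strand): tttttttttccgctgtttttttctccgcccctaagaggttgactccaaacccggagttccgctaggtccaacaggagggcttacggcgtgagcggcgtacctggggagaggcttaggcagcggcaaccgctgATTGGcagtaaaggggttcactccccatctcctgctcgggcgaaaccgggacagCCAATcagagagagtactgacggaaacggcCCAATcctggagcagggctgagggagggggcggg
SREBF2, chr22:41832855-41833104 (+ strand): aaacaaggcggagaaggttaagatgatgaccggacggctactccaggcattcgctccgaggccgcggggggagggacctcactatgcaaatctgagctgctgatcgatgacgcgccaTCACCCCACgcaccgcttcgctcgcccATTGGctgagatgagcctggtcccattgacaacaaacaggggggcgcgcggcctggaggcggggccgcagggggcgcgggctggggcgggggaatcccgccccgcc
FDPS, EBP and ERG28 hold 3 CCAAT boxes each, HMGCS1 holds 2, and INSIG1 and SREBF2 hold 1.

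Promoter windows were searched for 28 of the 32 listed genes, CYP51A1 and FADS1 among them, in 38 windows. No window was at hand for ACAT2 and FASN. Windows on chromosome 8, where SQLE and FDFT1 lie, were left out of the list. Windows on that chromosome were kept in the shares over the genes tested and over all windows. The shares of the list therefore do not cover SQLE and FDFT1. CCAAT on either strand stood in the windows of 20 of these 28 genes (71.4%), against 42.8% of the 7468 genes tested on the array that had a window. Among the searched enzymes from acetoacetyl-CoA to cholesterol it was 13 of 15 genes (86.7%), and 9 of them held at least 2 boxes. MVK and NSDHL held 5 boxes each, while PMVK and CYP51A1 held none. Among the fatty acid genes 3 of 6 held a box. Counted by window, the shares were 63.2% of the 38, 33.4% of the windows of the genes tested and 32% of all 35116 windows. Among the 28 genes, the letters TCACNCCAC on either strand were found only before SREBF2. That was 3.57% of the 28, against 1.29% of the genes tested and 1.09% of all genes with a window. A match of letters is a description of the window and shows no binding.

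**Figure D1:**
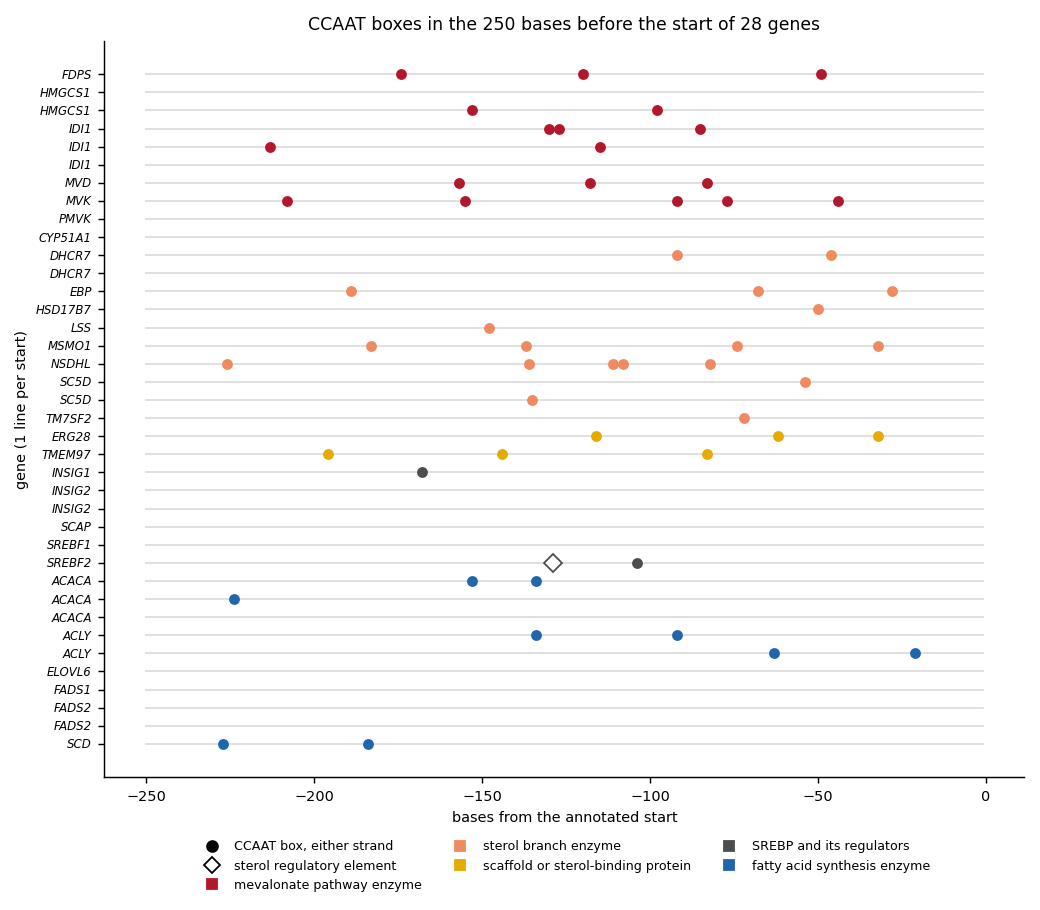
Positions of CCAAT boxes (filled circles) and of the sterol regulatory element letters (open diamond) in the 250 bases before the annotated starts of 28 genes, with 1 line per start and the colour giving the role of the gene. The x axis is in bases from the start. Boxes stand in 20 of the 28 genes, most of them enzymes of the sterol pathway.

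As a check of the libraries, the median signal per array ran from 125 to 159 and arrays of the same group correlated at r = 0.941 to 0.964 over probe sets. The target itself, EZH2, had signals of 1130.1 and 1172 in control siRNA cells, 572 and 270.6 after EZH2 siRNA no.2, and 681 after the unnumbered one. The Ewing sarcoma markers CD99, NKX2-2, STEAP1, PRKCB, DKK2 and CCND1 were above the filter on average, and 10 of the 14 measured markers of other cells (blood, epithelium, endothelium, liver and fat among them) were below it (CD3D, PECAM1, COL1A1 and DCN were above). The ratio of 3' to 5' signal of ACTB, a sign of RNA quality, was 1.25 and 1.44 in TSA and 1.14 and 1.29 in DMSO. Its part in the results was not tested.

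TSA was compared with its solvent. Genes of the sterol pathway had lower signals in TSA: all 7 measured enzymes of the mevalonate pathway, all 9 of the sterol branch and both ERG28 and TMEM97 had negative log2 fold changes. The median over the 29 genes was −0.45 on the log2 scale, against 0.03 over all genes tested. By role the median was −0.69 for the mevalonate pathway, −0.52 for the sterol branch, −0.13 for the fatty acid genes and 0.14 for the SREBPs with their regulators. The listed genes of fatty acid synthesis and the SREBPs themselves thus lay nearer to the rest of the transcriptome than the sterol enzymes did, a difference that was not tested. In bulk RNA, fewer cells that express a gene and less RNA per cell cannot be told apart.

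None of these differences passed the limma test adjusted over all genes. For TSA against DMSO 0 of 9100 genes passed (0%), and the adjusted p of each of the 29 genes was 1.00. At an unadjusted limma p under 0.05, 9 of the 29 genes were lower (INSIG1, ACAT2, IDI1, FDPS, EBP, TM7SF2, SC5D, ERG28 and TMEM97) and 0 higher, against 1.34% lower and 1.27% higher of all genes. Both TSA arrays lay below both DMSO arrays for 17 of the 29 genes and above for 0, against 13.1% and 15.8% of all genes. In all, 24 of the 29 genes had a negative value, against 46.3% of all genes. By replicate number the medians were −0.50 and −0.38, and 19 genes were negative in both. The count of 24 was 21 without DMSO replicate 2 (45.8% of all genes) and 27 without TSA replicate 1 (46.6%). With single arrays left out in turn, the 9 genes named above had negative values throughout. The value nearest 0 ran from −0.35 for ACAT2 to −0.75 for ERG28.

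INSIG1, the sterol-sensitive brake on SREBP, had signals of 3406 and 2816 in DMSO and 1957 and 1400.2 in TSA. With siRNA its signals were 1347 and 1747 for the control, 1741 and 1839 for EZH2 siRNA no.2 and 1526 for the unnumbered EZH2 siRNA. The DMSO arrays were the highest of the 9, and the other 7 overlapped among groups. The TSA mean was 54.0% of the DMSO mean (log2 −0.89, SE 0.26). Its other probe sets read −0.86 and −0.62 for TSA against DMSO.

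In the mevalonate pathway, ACAT2, which joins acetyl-CoA units at the start, gave 4415 and 4709 in DMSO, 1982 and 3576 in TSA and 3734 and 3766 with the control siRNA. The TSA arrays lay below all other arrays of this trio of groups, though 1 of them, at 1982, was far lower than the other (log2 −0.77, SE 0.29, and −0.35 without this array, TSA replicate 1). HMGCS1, the next enzyme, gave 1428 and 928 in DMSO, 909 and 794 in TSA and 634 and 602 with the control siRNA. Its DMSO arrays were the highest of the 9 and its TSA arrays lay above both control arrays, but the difference of TSA from DMSO was not among those 9 (log2 −0.43, SE 0.27), and it was −0.12 without DMSO replicate 1. The second HMGCS1 probe set read −0.87.

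IDI1, which interconverts the isoprene units, gave 7046 and 5545 in DMSO, 3016 and 4145 in TSA and 6181 and 4168 with the control siRNA. Both TSA arrays were below both DMSO arrays, while a control array lay between the DMSO arrays (log2 −0.82, SE 0.28). FDPS, which makes farnesyl diphosphate, gave 6048 and 4149 in DMSO, 3310.2 and 2440.3 in TSA and 3355 and 1809 with the control siRNA. Its DMSO arrays were the highest of the 9, and the TSA arrays lay within the range of the control arrays (log2 −0.81, SE 0.32). Of the other enzymes here, the decarboxylase MVD had a log2 fold change of −0.69, and the kinases MVK and PMVK had −0.21 and −0.07, with overlapping arrays.

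**Figure D2:**
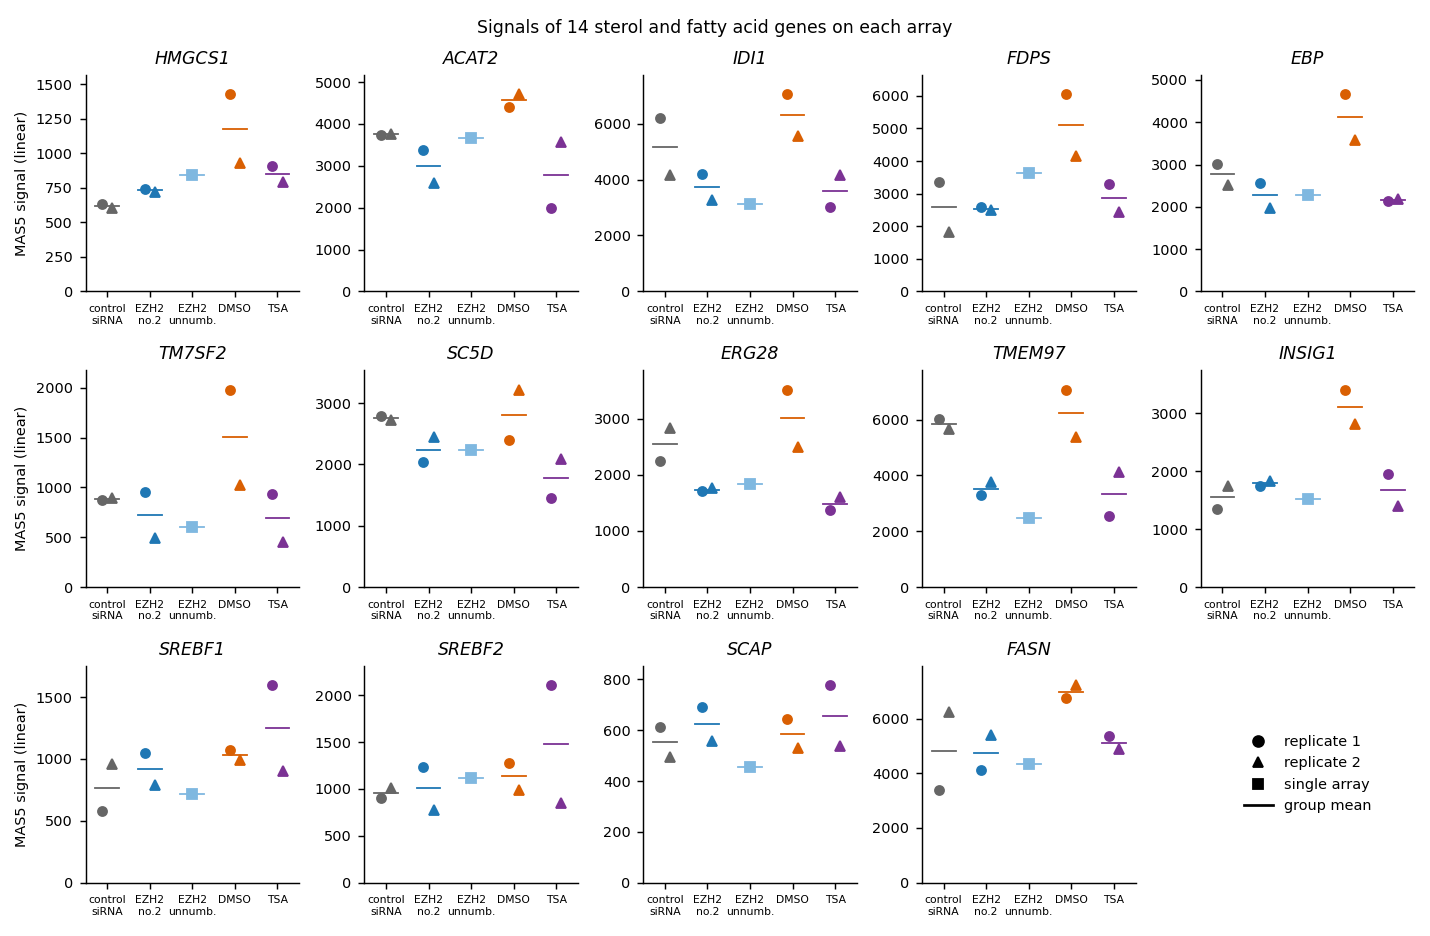
Deposited signal of 14 genes on each of the 9 arrays (y axis, linear scale from 0) by treatment group on the x axis. Circles are replicate 1, triangles replicate 2, squares the single array of the unnumbered EZH2 siRNA, and lines the group means. For INSIG1, FDPS and EBP both DMSO arrays lie above the other 7.

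In the branch from squalene to cholesterol, EBP, the isomerase that moves the double bond of the sterol ring, gave 4662 and 3575 in DMSO and 2130.1 and 2175 in TSA. The siRNA arrays gave 3022 and 2509.5 for the control, 2571 and 1972 for EZH2 siRNA no.2 and 2276 for the unnumbered one. The DMSO arrays were again the highest of the 9, and the TSA mean was 52.3% of the DMSO mean (log2 −0.92, SE 0.25). The other EBP probe sets read −0.74 and −0.38.

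TM7SF2, a sterol reductase, gave 1979.8 and 1023 in DMSO, 938 and 453 in TSA and 876 and 889 with the control siRNA. Replicate 1 was the higher array in both DMSO and TSA, and the lower DMSO array stood close to the higher TSA array (log2 −1.10, SE 0.42). This was the most negative value among the 29 genes, and it was −0.63 without DMSO replicate 1 and −0.59 without TSA replicate 2. SC5D, which adds a double bond to lathosterol, gave 2393 and 3216 in DMSO, 1457 and 2093 in TSA and 2795 and 2718 with the control siRNA. Here the TSA arrays were the ones apart, below all 4 others, and the DMSO and control arrays overlapped (log2 −0.66, SE 0.26). The other 6 enzymes of the branch (SQLE, LSS, MSMO1, NSDHL, HSD17B7 and DHCR7) ran from −0.54 for LSS to −0.38 for MSMO1, and the arrays of MSMO1 alone among these 6 overlapped between TSA and DMSO.

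ERG28, a scaffold that gathers the demethylating enzymes of the branch, gave 3513 and 2499.8 in DMSO, 1368 and 1598 in TSA and 2243 and 2838 with the control siRNA. Both TSA arrays were the lowest of the 9, and the TSA mean was 49.3% of the DMSO mean (log2 −0.99, SE 0.25). TMEM97, a sterol-responsive membrane protein that binds NPC1, gave 7065 and 5377 in DMSO, 2551 and 4131 in TSA and 6034 and 5677 with the control siRNA. Its TSA arrays were below all DMSO and control arrays (log2 −0.92, SE 0.27). The other 3 TMEM97 probe sets gave smaller values, from −0.27 to −0.26.

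Of the regulators, SREBF2 gave 1280.2 and 986 in DMSO, 2107 and 849 in TSA and 906 and 1006 with the control siRNA. TSA replicate 1 was the highest of the 9 arrays and TSA replicate 2 was below both control arrays, so the groups overlapped (log2 0.25, SE 0.39). SREBF1 gave 1073 and 987 in DMSO, 1595 and 900.4 in TSA and 578 and 956 with the control siRNA. The same TSA array was the highest of the 9 (log2 0.22, SE 0.33). SCAP gave 642 and 531 in DMSO, 777 and 537 in TSA and 612 and 495 with the control siRNA, and here too TSA replicate 1 was the highest array (log2 0.14, SE 0.28). Without that array the log2 fold changes were −0.39 for SREBF2, −0.19 for SREBF1 and −0.12 for SCAP. INSIG2, the second INSIG gene, had 396 and 215 in DMSO and 428 and 155 in TSA (log2 −0.15).

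FASN, the fatty acid synthase, gave 6766 and 7228 in DMSO, 5369.6 and 4888 in TSA and 3405 and 6256 with the control siRNA. It was the only one of the 6 fatty acid genes whose TSA and DMSO arrays did not overlap (log2 −0.45, SE 0.29). The carboxylase ACACA, the citrate lyase ACLY, the desaturases SCD and FADS2 and the elongase ELOVL6 ran from −0.16 to 0.18, each smaller than its SE. For ACLY and ACACA the dimmer probe sets differed from the brightest one: −0.49 and −0.87 against −0.10 for ACLY, and −0.55 against 0.05 for ACACA.

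**Figure D3:**
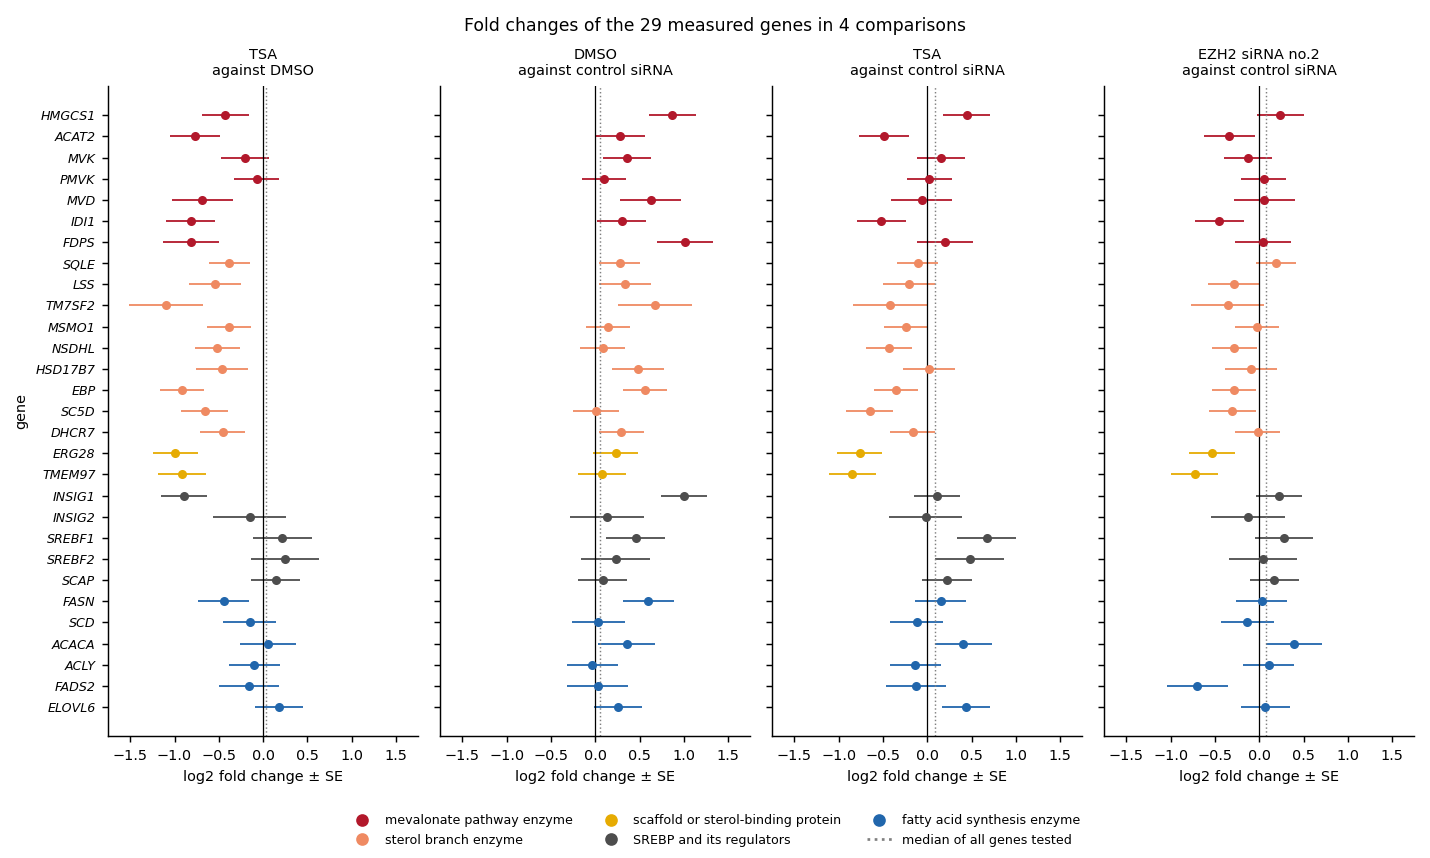
Log2 fold change (x axis) with its standard error for each of the 29 genes (y axis, coloured by role) in 4 comparisons, with a dotted line at the median of all genes tested. For TSA against DMSO all 16 sterol pathway enzymes lie left of 0, and for DMSO against the control siRNA 28 of 29 genes lie right of it. The comparisons share arrays.

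Over all probe sets of these genes above the filter, 45 of 56 had a negative value for TSA against DMSO, with a median of −0.41. Of the 17 genes with several such probe sets, 11 were negative on each, 2 positive on each and 4 mixed. LSS, lanosterol synthase, was among the mixed, with −0.54 on its brightest probe set and 0.15 and 0.29 on the others. The only HSD17B7 probe set and both IDI1 probe sets are of a kind marked by the manufacturer as able to bind similar transcripts, so their signals may include other sequences.

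**Figure D4:**
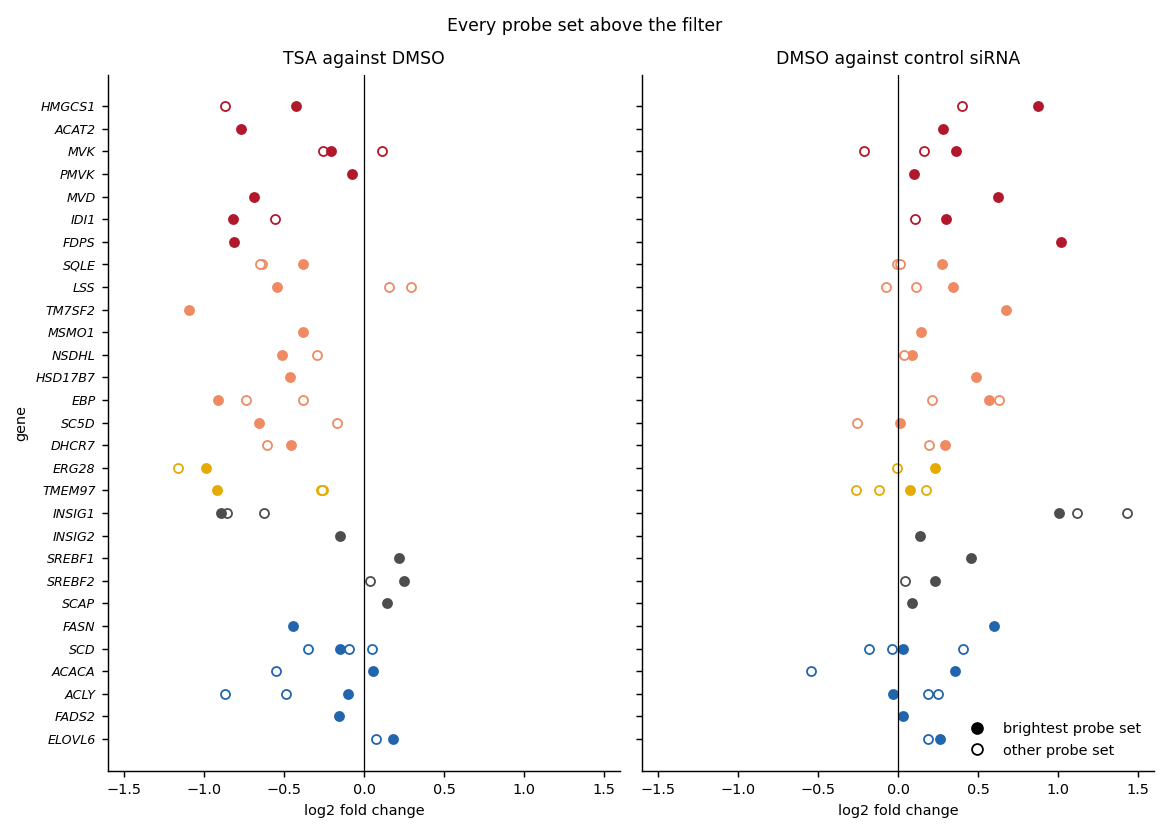
Log2 fold change (x axis) of every probe set above the filter, by gene (y axis), for TSA against DMSO and for DMSO against the control siRNA. Filled circles are the brightest probe set of each gene and open circles the others. For INSIG1 and EBP the probe sets share a sign in both comparisons, and for LSS they do not.

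Untransfected cells in DMSO were then set beside cells with the control siRNA, which share the DMSO arrays with the comparison above. Signals were on average higher in DMSO: 28 of the 29 genes had a positive value, against 56.6% of all genes. The median was 0.28, against 0.05. Over the probe sets above the filter, 45 of 56 had a positive value, with a median of 0.18. Of the 17 genes with several such probe sets, 8 were positive on each and 9 mixed. By replicate number 18 genes were positive in both, against 2944 of the 9100 genes tested. INSIG1 and FDPS had about the same ratio of means, 2.01 and 1.97 times the control (log2 1.00, SE 0.26 for INSIG1, and log2 1.02, SE 0.32 for FDPS). The ratio was 1.91 for HMGCS1 (log2 0.87, SE 0.27). For EBP it was 1.49 (log2 0.56, SE 0.25). The other INSIG1 probe sets read 1.43 and 1.12. The second HMGCS1 probe set read 0.39, and the other EBP probe sets read 0.21 and 0.63. By role the medians were 0.36 for the mevalonate pathway, 0.29 for the sterol branch, 0.23 for the SREBPs with their regulators and 0.15 for the fatty acid genes, among which FASN had 0.60 and ACLY −0.03. The FASN value was 0.16 without control siRNA replicate 1 and 1.03 without control siRNA replicate 2.

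Again 0 of 9100 genes passed the adjusted limma test (0%), with a lowest adjusted p of 1.00 among the 29. INSIG1, FDPS, HMGCS1 and EBP were the 4 genes higher at an unadjusted limma p under 0.05 and 0 were lower, against 3.41% and 1.19% of all genes. Both DMSO arrays were above both control arrays for 12 genes and below for 0, against 21.3% and 12.9%. These counts leaned on single arrays and on the scaling. The count of 12 became 21 without control siRNA replicate 2 (44.3% of all genes) and 21 without DMSO replicate 2 (35.3%), and it fell to 8 when arrays were scaled to a common median (13.6%). Without DMSO replicate 1, 21 of the 29 values were positive, against 59.6% of all genes. With single arrays left out in turn, the lowest value was 0.82 for INSIG1, 0.58 for FDPS, 0.57 for HMGCS1 and 0.37 for EBP. The median was 0.16 when control siRNA replicate 1 was left out. After scaling of all arrays to a common median, 22 of 29 values were positive, against 45.0% of all genes. SC5D, TMEM97 and SCAP were among the genes that turned negative.

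TSA was also set against the control siRNA, with arrays shared with both comparisons above. The median of the 29 genes was −0.11, against 0.09 over all genes, with 12 values positive and 17 negative. The sterol branch had 8 of 9 values negative (median −0.24) and the mevalonate pathway 3 of 7 (median 0.02). Of all genes, 40.2% had a negative value. The genes lower at an unadjusted limma p under 0.05 were TMEM97 (−0.84, SE 0.27), ERG28 (−0.76, SE 0.25) and SC5D (−0.65, SE 0.26). At that p 0 were higher, against 1.73% lower and 4.38% higher of all genes. The 4 TMEM97 probe sets ran from −0.84 to −0.09. The second probe set above the filter read −1.18 for ERG28 and −0.43 for SC5D. With single arrays left out in turn, the value nearest 0 was −0.50 for TMEM97, −0.59 for ERG28 and −0.39 for SC5D. The median of the 29 genes was 0.02 without TSA replicate 2. Both TSA arrays were below both control arrays for 9 genes and above for 3, against 11.4% and 21.7%. The 3 were HMGCS1, ACACA and ELOVL6, with 0.44, 0.41 and 0.44. The second HMGCS1 probe set read −0.48, and the second ACACA probe set −1.10. SREBF1 had the highest value of the 29, 0.67 (SE 0.33), with overlapping arrays. The adjusted limma test passed 0 of 9100 genes (0%), and the lowest adjusted p of the 29 was 0.772.

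Among the 3 groups of these comparisons, the mean of the log2 signals was highest in DMSO for 23 of the 29 genes, against 31.5% of all genes. These were all 16 sterol enzymes, ERG28, TMEM97, both INSIG genes, FASN, SCD and FADS2. SREBF1, SREBF2 and SCAP were not among them. Both DMSO arrays exceeded the other 4 arrays for 11 genes, against 5.91% of all genes. Those were ACAT2, HMGCS1, MVD, FDPS, SQLE, TM7SF2, HSD17B7, EBP, DHCR7, INSIG1 and FASN. The 11 became 17 without DMSO replicate 1 (17.2% of all genes) and 6 when arrays were scaled to a common median (4.64%). When the EZH2 siRNA arrays were added, both DMSO arrays exceeded the other 7 for 8 genes, against 3.38% of all genes, since MVD, SQLE and DHCR7 dropped out.

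The mean profile of the 16 sterol enzymes shows the same order by array. Relative to the mean of the 9 arrays on the log2 scale, it stood at 0.47 and 0.31 in DMSO and at −0.19 and −0.18 in TSA. The control siRNA arrays were at 0.02 and −0.04, those of EZH2 siRNA no.2 at −0.07 and −0.20, and the unnumbered EZH2 siRNA at −0.11. DMSO was thus apart from the rest, and the spread between the other 7 arrays was smaller than the distance to DMSO. The 6 fatty acid genes had a different profile. It stood at 0.02 and 0.29 in DMSO, 0.16 and −0.06 in TSA and −0.34 and 0.23 with the control siRNA, so replicates differed as much as groups did.

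**Figure D5:**
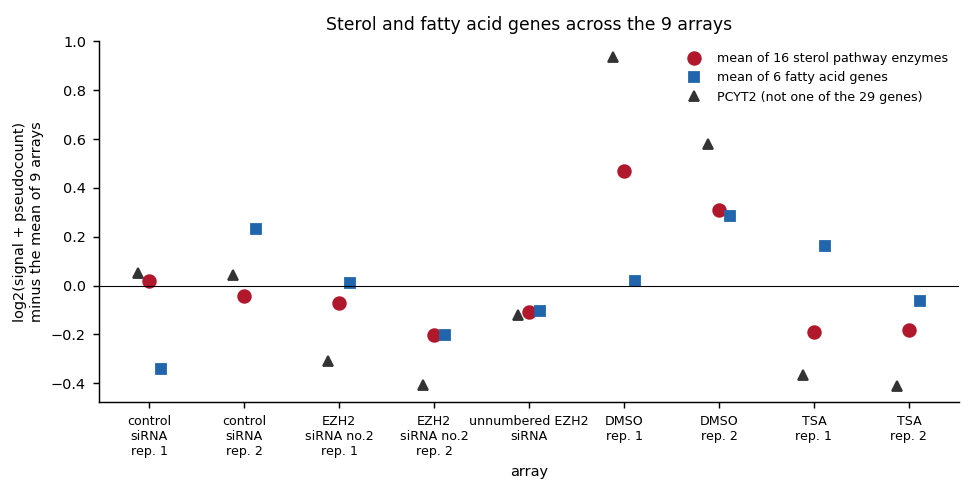
Mean of centred log2 signals of the 16 sterol pathway enzymes (circles) and of the 6 fatty acid genes (squares) on each array, with PCYT2 (triangles) as the gene most like the sterol enzymes. The y axis is log2(signal + 25.1) minus the mean of the 9 arrays, and the x axis gives the arrays. The sterol enzymes stand at 0.47 and 0.31 in DMSO and between −0.20 and 0.02 on the other arrays.

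Genes outside the list were ranked by how closely they followed this profile of the sterol enzymes over the 9 arrays. PCYT2, an enzyme of phosphatidylethanolamine synthesis, came first of all 9100 genes (Pearson r = 0.98). Its signals were 1061 and 825 in DMSO, 416 and 402 in TSA, 564 and 560.4 in control siRNA cells, 433 and 404 after EZH2 siRNA no.2 and 498 with the unnumbered one. The DMSO arrays were highest and both the TSA and EZH2 siRNA arrays lay below the controls (TSA against DMSO log2 −1.15, SE 0.25). MGST3, a microsomal glutathione transferase, and MNAT1, a subunit of the kinase that activates cyclin-dependent kinases, followed at r = 0.90 each. Among the genes of the list that were not used for the profile, ERG28 had r = 0.84, INSIG1 0.82, TMEM97 0.71 and FASN 0.52, whereas SREBF1 and SREBF2 had 0.06 and 0.04. All values share the 9 arrays and their scaling, and they are given as a description.

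EZH2 siRNA no.2 was compared with the control siRNA, the comparison at the centre of the study. The median of the 29 genes was −0.03, against 0.08 over all genes, with 13 values positive and 16 negative. By role it was −0.28 for the sterol branch, 0.05 for both the mevalonate pathway and the fatty acid genes and 0.17 for the SREBPs with their regulators. In the sterol branch 8 of 9 values were negative, against 41.5% of all genes, and the arrays of 7 of the 9 overlapped. That count was 5 without control siRNA replicate 2 and 6 without EZH2 siRNA no.2 replicate 2, when the median of the branch was −0.11 and −0.10. After quantile normalization the count was 6 (median −0.23), against 47.2% of all genes. The single array of the unnumbered EZH2 siRNA, set against the same control arrays, also had 8 of the 9 below the control mean (median −0.30). The share over all genes was 43.9% (median 0.07). TMEM97 was the 1 gene with an unadjusted limma p under 0.05, at 3305 and 3745 against 6034 and 5677 (log2 −0.73, SE 0.27), against 1.76% lower and 3.96% higher of all genes. On this probe set the unnumbered EZH2 siRNA was lower still, at 2476 (log2 −1.23). TMEM97's other probe sets ran from −0.49 to −0.13 with EZH2 siRNA no.2. On these the unnumbered EZH2 siRNA gave 3433, 3900 and 523. The means were 3544, 3443 and 464 with EZH2 siRNA no.2 and 3867, 4856 and 561 with the control. With single arrays left out in turn, the TMEM97 value for EZH2 siRNA no.2 ran from −0.82 to −0.64 on the brightest probe set. Without EZH2 siRNA no.2 replicate 2 the median of the 29 genes was 0.07.

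Both EZH2 siRNA no.2 arrays were below both control arrays for 6 genes (ACAT2, NSDHL, SC5D, ERG28, TMEM97 and FADS2) and above for 2 (HMGCS1 and ACACA), against 13.1% and 22.8% of all genes. For these 2 the other probe set had the opposite sign, with −0.31 for HMGCS1 and −0.87 for ACACA. ERG28 gave 1712 and 1759 against 2243 and 2838 (log2 −0.53, SE 0.25), and the unnumbered EZH2 siRNA gave 1837. FADS2, a desaturase for polyunsaturated fatty acids, gave 6629 and 5113 with EZH2 siRNA no.2, 4560.5 with the unnumbered one and 6774 and 13220.4 with the control. Its control arrays lay far apart, and the log2 fold change was −0.70 (SE 0.34). The SREBPs were near the control, with 0.28 for SREBF1 (SE 0.33) and 0.04 for SREBF2 (SE 0.39), which turned to −0.10 when arrays were scaled to a common median. The adjusted limma test passed 0 of 9100 genes (0%), and the lowest adjusted p of the 29 was 0.862.

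Neighbouring pathways were read from further lists, and no gene of these lists passed the adjusted limma test in any of the 4 comparisons. For TSA against DMSO, the 8 tested genes of other sterol and isoprenoid steps had 3 positive and 5 negative values (median −0.04), and COQ2, which joins the side chain of ubiquinone to its ring, had −0.67 (SE 0.29). The 5 genes of SREBP processing and degradation had 3 positive and 2 negative values (median 0.03), and the 12 genes of sterol transport and efflux had 7 and 5 (median 0.04). Of 13 other genes of fatty acid and lipid synthesis, 2 were positive and 11 negative (median −0.22). Over all genes tested, 46.3% of values were negative in this comparison, with a median of 0.03. PGD, which supplies NADPH, had −0.49 (SE 0.21), and it and COQ2 were the 2 genes of these 5 lists (with fatty acid oxidation) with an unadjusted limma p under 0.05.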

How the data were processed

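The deposited values are intensity signals of human Affymetrix arrays, made by the authors with MAS5, per the submitters' processing notes. The version and the scaling target are not given in the sources used here, but all arrays had a trimmed mean between 500.1 and 500.2.

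Signals were taken as log2(signal + 25.1), the pseudocount being the 20th percentile of all values. Probe sets naming 1 gene were kept where their mean signal reached the 30th percentile (53.3), and each of the 9100 genes was represented by its brightest probe set. A model of 5 group means over the 9 arrays was fitted in limma 3.58.1 (R 4.3.3, eBayes with trend, 4 residual degrees of freedom) and tested two-sided, with the Benjamini-Hochberg adjustment over all genes and a threshold of 0.05. The unnumbered EZH2 siRNA, with 1 array, borrowed the spread of the other groups. The fit was tested on simulated data. With 2 arrays a group, exact permutation reaches p = 0.333 at the lowest and was not run.

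The genes and lists were chosen with earlier results of these data known. Values on each array were given for genes without overlap between groups and an unadjusted limma p under 0.05 in a comparison of DMSO, TSA and the control siRNA, and for SREBF1, SREBF2, SCAP, INSIG1, HMGCS1 and FASN. For neighbouring pathways the genes with an unadjusted p under 0.05 for TSA against DMSO were named. Pattern likeness was Pearson's r with the mean of the 16 sterol enzymes, and the 3 genes outside the list with the highest r were named. Promoter windows were searched in Python 3.11.15. Alternatives were other pseudocounts (5.42 and 87.2), no filter or one at the 50th percentile, all probe sets, quantile normalization or a common median, no trend in eBayes, a fit of the compared groups alone, the replicate number as a block, and leaving out each array. The number of arrays limits the precision.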

Additional observations from a re-analysis of the deposited data

How the results depend on the processing

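Under every alternative 0 of the 29 genes passed the adjusted limma test in the 4 comparisons. The median for TSA against DMSO ran from −0.52 to −0.38. The median for DMSO against the control siRNA ran from 0.16 (without control siRNA replicate 1) to 0.41 (without DMSO replicate 2). For TSA against the control siRNA it ran from −0.29 to 0.02, and for EZH2 siRNA no.2 from −0.17 to 0.07, so the sign of these medians was not stable. Of 728 values (14 named genes, 4 comparisons, 13 alternatives each), 32 changed sign and 0 passed. Scaling each array to the same median moved the median of all genes from 0.09 to −0.07 for TSA against the control siRNA and from 0.08 to −0.06 for EZH2 siRNA no.2. Counts under scalings and left-out arrays were added once the data had been examined. With every probe set the genes or probe sets lower for EZH2 siRNA no.2 at an unadjusted limma p under 0.05 were 4, not 1. The share over all probe sets is not given here.

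Deviations of arrays with the same replicate number correlated weakly but positively, at 0.05 to 0.38 over 6 pairs of groups. The numbers were not taken as pairs, except in the alternative with a block. The mean log2 signal of the array's hybridization controls also differed by replicate number. It was 9.81 to 10.16 on replicate 1 arrays and 10.43 to 10.53 on replicate 2 arrays. What set the replicates apart was not tested. With a replicate block 0 genes passed, and the lowest adjusted limma p was 0.762, 0.549, 0.411 and 0.483 in the order of the report. At an unadjusted limma p under 0.05, 11 genes were lower for TSA against DMSO and 7 higher for DMSO against the control siRNA. The shares of all genes with the block are not given here, so these counts cannot be set against the background.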

Other observations

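Fatty acid oxidation, the reverse of synthesis, was read from 9 tested genes. All 9 had negative values for TSA against DMSO (median −0.31), against 46.3% of all genes (median 0.03). None had an unadjusted limma p under 0.05. The lowest was ACAA2, the last enzyme of the mitochondrial cycle, at −0.55 (SE 0.27), followed by CPT1A, which loads fatty acids onto carnitine, at −0.41 (SE 0.29). For DMSO against the control siRNA 8 of the 9 were positive (median 0.14), against 56.6% of all genes (median 0.05). ACADVL, a dehydrogenase for long chains, had 0.99 (SE 0.35). The 2 comparisons share the DMSO arrays.

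A few genes outside the list had larger values than its members, and they were chosen here after their values had been seen, from those with an unadjusted limma p under 0.05. NR1H3, a nuclear receptor for oxidised sterols that promotes sterol efflux, had a log2 value of 1.57 for DMSO (SE 0.41) and 1.34 for TSA (SE 0.41), each against the control siRNA. ACSL4, which activates polyunsaturated fatty acids, had 1.12 for TSA (SE 0.36) and 1.18 for EZH2 siRNA no.2 (SE 0.36). Both comparisons use the same control arrays, and none of these values passed the adjusted limma test.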
